A study of Mus musculus with 18 samples.

Results

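miR-221 and miR-222 are microRNAs encoded by neighbouring hairpins on the mouse X chromosome. They were taken from the deposited table by name, with both arms of each, which gave 4 of the 1390 mature miRNAs listed: mmu-miR-221-3p, mmu-miR-221-5p, mmu-miR-222-3p and mmu-miR-222-5p. Below they are named without the mouse prefix. The study followed small RNAs while embryonic stem cells (ESCs) were derived. They start as the inner cell mass (ICM), from which the embryo itself forms in the blastocyst. Its 18 libraries formed 9 groups of 2. The starting group was freshly isolated ICM of E3.5 blastocysts of the NMRI mouse strain, called day 0. The outgrowths were ICMs kept in culture for 0.5, 1, 2, 3 or 5 days. The ESC groups carry the codes P2, P4 and P15 in their descriptions. All groups share the strain, the blastocyst source, immunosurgery as the way of isolating the ICM, and the label R2i with leukemia inhibitory factor for the medium. R2i holds the MEK inhibitor PD0325901 at 1 µM and SB431542, an inhibitor of activin and TGF-beta type I receptors, at 10 µM. The titles of the ESC libraries give other passages (4, 15 and 2 for P2, P4 and P15), so the ESC groups are named by code and their order is left unread. How many embryos or lines went into a library is not given in the sources used here, so p-values measure the spread between libraries, which may be technical.

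A miRNA finds its target mRNAs mainly through its seed, a short stretch near its 5′ end, and miRNAs with the same seed can repress many of the same targets. miR-221 and miR-222 are usually made together from 1 primary transcript, and their 3p arms are the ones most often loaded into Argonaute. In human tumour cells both repress CDKN1B (p27Kip1), a brake on the cell cycle, and the receptor KIT, and in the adult both are abundant in endothelium and vascular smooth muscle.

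The mature sequences are shown because the 3p arms share their seed while the 5p arm of miR-221 has another one. The seed (bases 2 to 8) is in capitals, 5′ to 3′, from RefSeq on GRCm38.p6, which held 3 of the 4 mature forms.
miR-221-3p: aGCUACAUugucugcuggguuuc
miR-222-3p: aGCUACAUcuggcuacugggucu
miR-221-5p: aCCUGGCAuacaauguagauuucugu
The 3p arms are identical in their first 8 bases and, laid side by side without a gap, in 11 of 23 positions. The positions at which they differ therefore all lie after the seed. The only other RefSeq mouse miRNA with the seed GCUACAU is miR-1928, which was not analysed here, and no other RefSeq miRNA has the seed of miR-221-5p. The hairpins follow with the printed arms in capitals, to show where in the precursor each arm sits.
Mir221: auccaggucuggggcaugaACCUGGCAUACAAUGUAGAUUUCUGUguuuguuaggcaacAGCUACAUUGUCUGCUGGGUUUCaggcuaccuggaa
Mir222: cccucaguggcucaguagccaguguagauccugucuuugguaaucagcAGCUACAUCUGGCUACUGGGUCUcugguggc
Mir221 spans chrX:19146294-19146388 and Mir222 spans chrX:19146893-19146971, both on the minus strand, with 504 bases between them. miR-221-3p lies at chrX:19146307-19146329, miR-221-5p at chrX:19146344-19146369 and miR-222-3p at chrX:19146901-19146923. In GENCODE vM21 no other gene overlaps the hairpins or the bases between them, so the pair is intergenic there. The nearest neighbours are the processed transcript Gm14636, 10009 bases away at higher coordinates, and the processed pseudogene Gm5383, 203065 bases away at lower coordinates.

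The values are normalized counts that the authors rounded to whole numbers, and library totals ranged from 602238 to 1265117. Depth followed stage. The 10 libraries of ICM and of days 0.5 to 3 held an estimated 111000 to 370000 reads, and the 8 libraries of day 5 and ESC between about 2320000 and 9060000 if their lowest listed values also stand for 5 reads. A miRNA with fewer than 5 reads was listed at 0, so a 0 in a library of day 3 or earlier stands for anything below a limit of 8.66 to 27.2 normalized counts, according to the library. A value below 27.2 in these libraries is therefore called not resolved. Each test was repeated at a common floor, with every value below 27.2 raised to it. Values raised to the floor have no spread of their own, which can make p-values there too small. The 3p arms of the miR-290 cluster, markers of pluripotent cells, were above 0 in each group in 6 of 6, with summed levels of 44183 to 72010 in ESC, 25797 to 51057 in outgrowths and 39052 to 46731 in ICM.

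miR-222-3p was the most abundant of the pair, with a mean of 111 normalized counts over all libraries, rank 253 of 1390. It reached the floor of 27.2 in 14 of 18 libraries. miR-221-3p averaged 33.2 (rank 386) and reached the floor in 7 libraries, miR-221-5p averaged 22.1 (rank 428) and reached it in 3, and miR-222-5p averaged 4 (rank 707) and reached it in 1. Members differed in when they were highest: both arms of miR-221 and miR-222-5p had their highest group mean in ICM or at day 0.5, and miR-222-3p had its highest at day 2.

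**Figure D1:**
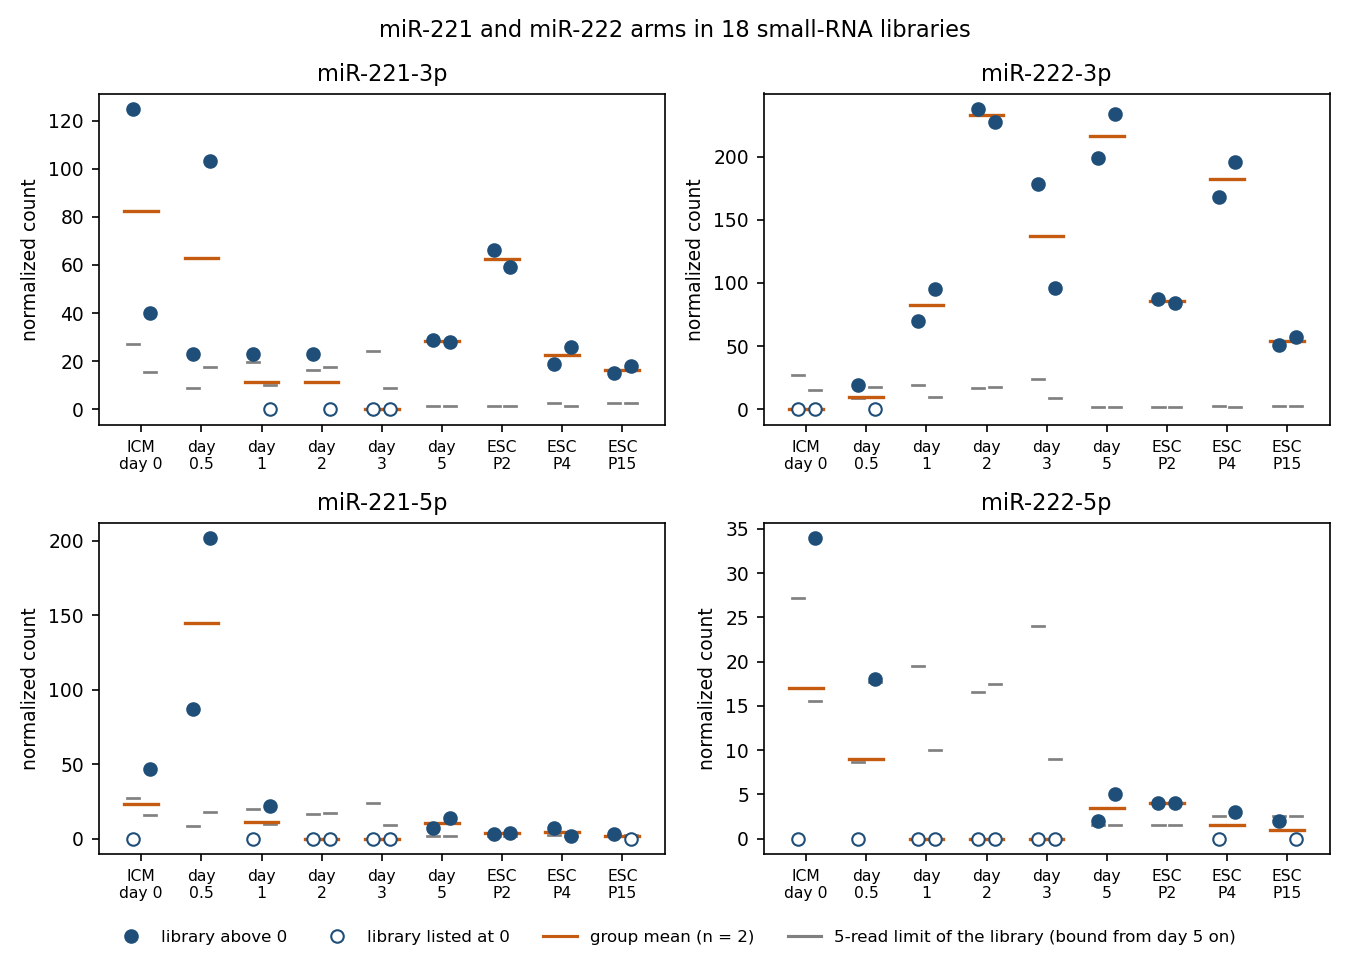
Normalized counts of the 4 arms (linear axes, each with its own range) in the 18 libraries by group. Filled points are libraries above 0, open points libraries listed at 0, orange bars group means (n = 2), and grey bars the value that 5 reads give in that library, which from day 5 on is only an upper bound. miR-222-3p was listed at 0 in both ICM libraries and stood at 227 and 238 at day 2, while miR-221-5p reached 87 and 202 at day 0.5 and 14 at most from day 2 on.

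miR-222-3p was listed at 0 in both ICM libraries. At day 0.5 it had 19 and 0 normalized counts, at day 1 it had 70 and 95, and at day 2 it had 238 and 227. It then had 178 and 96 at day 3 and 199 and 234 at day 5. In ESC it had 87 and 84 in P2, 168 and 196 in P4, and 51 and 57 in P15. So no ICM library and 1 of 2 at day 0.5 showed it, while each library from day 1 on held it above the floor. In reads, the step was from none listed in ICM through 11 at day 0.5 to 18 and 48 at day 1 and 72 and 65 at day 2. The exact 95% Poisson intervals, which cover counting error only, were 186 to 299 and 175 to 289 normalized counts in the day 2 libraries, and 41.7 to 111 and 70.6 to 127 in the day 1 libraries. The day 2 intervals do not overlap those of day 1. By group mean the order was day 2 (232.5), day 5 (216.5), P4 (182), day 3 (137), P2 (85.5), day 1 (82.5), P15 (54), day 0.5 (9.5) and ICM (0). Neighbours in that order whose libraries overlapped were day 2 and day 5, P4 and day 3, P2 and day 1, and day 0.5 and ICM.

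Between ESC and ICM, miR-222-3p rose. It averaged 107 ± 60.3 normalized counts in ESC (SD, n = 6), with a lowest value of 51, a median of 85.5 and a highest of 196, against 0 in both ICM libraries. The lowest ESC library was above the limits of 27.2 and 15.5 that a listing of 0 allows in the ICM libraries, so the groups were apart despite the difference in depth. Taken against the floor, ESC was at least 3.94-fold higher. The log2 change was 6.58 ± 0.81 (SE, limma adjusted p = 3.33e-05) with 1 added to each value, and 1.79 at the floor (limma adjusted p = 1.86e-05). Of the members 1 of 4 was called in that comparison, in which 55.2% of the 811 miRNAs tested were called, 31.6% as higher and 23.7% as lower. At the floor 1 of 3 members was called, with 68.1% of 602 miRNAs. miR-222-3p was called under 28 of 28 alternatives run, with log2 changes of 1.79 to 7.57. The median change of all tested miRNAs was 0.01, and -0.44 after rescaling libraries to the same total.

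The outgrowths gave a like picture. miR-222-3p averaged 136 ± 90.6 normalized counts in outgrowths (SD, n = 10), with a lowest value of 0, a median of 137 and a highest of 238, against 0 in both ICM libraries. The day 0.5 library listed at 0 makes the groups overlap. The outgrowths were at least 4.99-fold higher, and the day 2 libraries alone at least 8.55-fold higher. The log2 change was 6.24 ± 0.77 (SE, limma adjusted p = 9.59e-05). The floor gave 1.99 (limma adjusted p = 1.49e-05). Again 1 of 4 members was called, with 34.9% of all tested miRNAs called.

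The rise of miR-222-3p was then followed from one time to the next. At day 0.5 against ICM the log2 change of miR-222-3p was 2.16 and not called (limma adjusted p = 0.223), and at the floor it was 0. In that step 0 of 4 members were called, 1 of them at an unadjusted limma p below 0.05, and 11.3% of all miRNAs were called. At day 1 against day 0.5 miR-222-3p rose by 4.21 ± 1.00 on the log2 scale (SE, limma adjusted p = 0.0163), with 70 and 95 normalized counts at day 1 against 19 and 0 at day 0.5. In that step 1 of 4 members was called, with 15.2% of all miRNAs called. The call was lost without day 1 replicate 1 (limma adjusted p = 0.0657), without day 1 replicate 2 (0.0646), and in a fit on the 10 shallow libraries alone (0.136, with 7.82% of all miRNAs called). At the floor the log2 change was 1.58 (limma adjusted p = 0.0014).

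At day 2 against day 1 the log2 change of miR-222-3p was 1.50, not called with values as deposited (limma adjusted p = 0.463) and called at the floor (1.51, limma adjusted p = 0.0028). Values of 238 and 227 at day 2 lay above 70 and 95 at day 1, a 2.82-fold difference of the means. Without the first or the second of the day 0.5 libraries, which enter the shared estimate of the spread with 19 and 0, the day 2 step was called with values as deposited (limma adjusted p = 0.0211 and 0.0165). Of the members, 0 of 4 were called with values as deposited, none of them at an unadjusted limma p below 0.05, against 10.9% of all miRNAs. At the floor 1 of 3 members was called, against 16.3%. Day 3 against day 2 (-0.83, limma adjusted p = 0.923) and day 5 against day 3 (0.72, limma adjusted p = 0.765) were not called, and no member was called in either step, against 4.07% and 18.4% of all miRNAs. At an unadjusted limma p below 0.05 there was no member in the day 3 step and 1 in the day 5 step. That one was miR-221-3p, at 4.88 with values as deposited and 0.068 at the floor, with 29 and 28 normalized counts at day 5 against 0 in both day 3 libraries. miR-221-5p gave 3.45 in that step and 0 at the floor.

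Days 2 and 3 against days 0.5 and 1 compares libraries of like depth. miR-222-3p averaged 185 ± 64.7 normalized counts at days 2 and 3, with values of 96 to 238, against 46 ± 44.1 at days 0.5 and 1, with values of 0 to 95 (SD, n = 4 each). The groups did not overlap, though 96 and 95, the nearest values, are 1 normalized count apart. The share of all miRNAs without overlap was not counted. miR-222-3p rose by 3.19 ± 0.70 on the log2 scale (SE, limma adjusted p = 0.00465), and by 1.89 at the floor (limma adjusted p = 1.26e-05, with 40% of all miRNAs called there). The median of all tested miRNAs was -0.71 in that comparison, and -0.91 after rescaling to the same total. Of the 4 members 2 were called, 1 in each direction, with 33.2% of all miRNAs called, 11.2% as higher and 21.9% as lower. In a fit on these 4 groups alone the change in miR-222-3p was not called (limma adjusted p = 0.0958), and in the fit on all shallow libraries it was (0.0454), with 26.9% of 729 miRNAs.

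**Figure D2:**
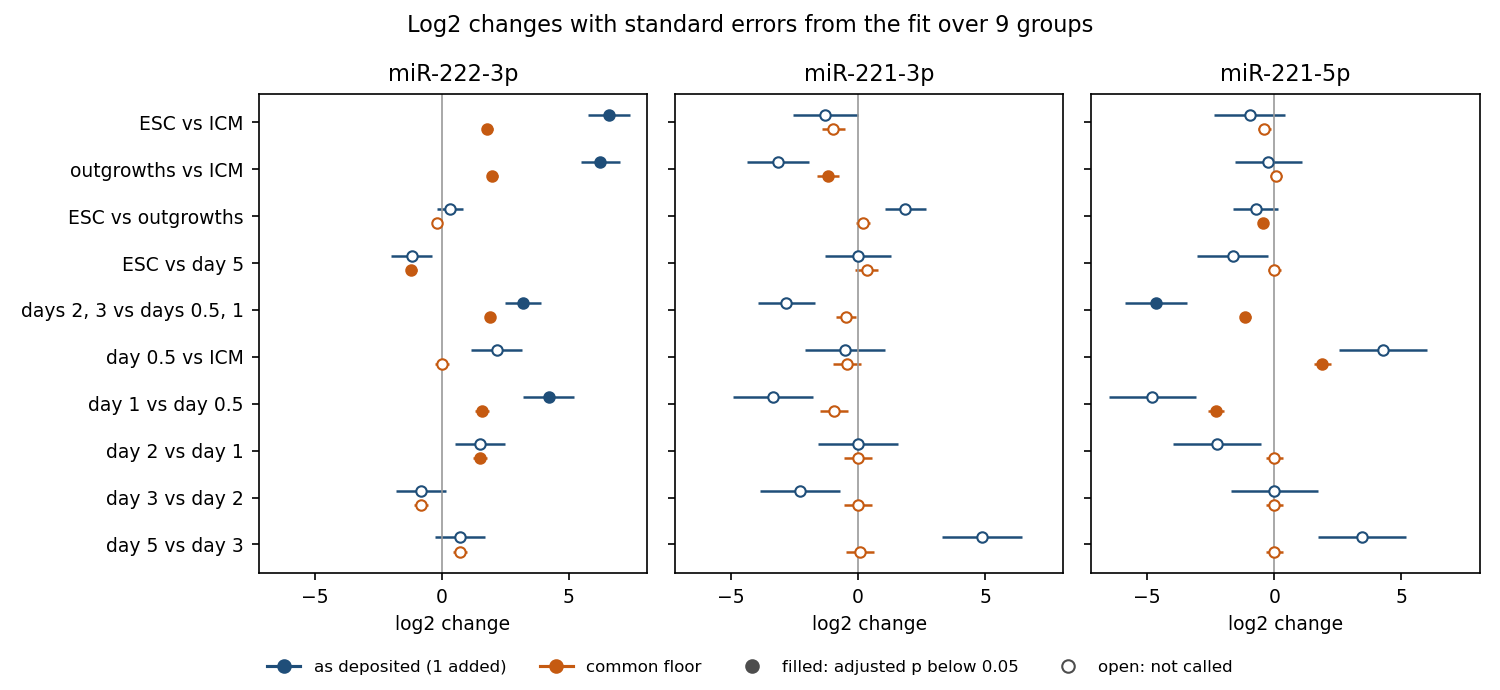
Log2 changes (horizontal axis) of miR-222-3p, miR-221-3p and miR-221-5p in 10 comparisons, with standard errors, for values as deposited with 1 added (blue) and at the common floor (orange). Filled points have a limma adjusted p below 0.05. The changes of miR-222-3p against ICM shrink from 6.58 and 6.24 to 1.79 and 1.99 at the floor and are called on both scales.

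miR-221-3p had its highest group means at the start. It had 125 and 40 normalized counts in ICM (23 and 13 reads), 23 and 103 at day 0.5, 23 and 0 at day 1, 23 and 0 at day 2, 0 and 0 at day 3, and 29 and 28 at day 5. In ESC it had 66 and 59 in P2, 19 and 26 in P4, and 15 and 18 in P15. No library of days 1 to 3 held a resolved value, so a level there of up to the limit of each library cannot be told from 0. The replicates of ICM and of day 0.5 lay apart beyond counting error, with exact 95% Poisson intervals of 79.3 to 188 and 21.5 to 68.9 normalized counts in ICM and of 12 to 38.5 and 68.7 to 147 at day 0.5. By group mean ICM (82.5), day 0.5 (63) and P2 (62.5) were highest and overlapped one another in that order. From P2 down to P15 the neighbours day 5 (28.5), P4 (22.5) and P15 (16.5) did not overlap. Day 1 and day 2 (11.5 each) and day 3 (0) came last, and their libraries overlapped.

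The tests on miR-221-3p against ICM mostly missed the threshold. It averaged 33.8 ± 22.6 normalized counts in ESC (SD, n = 6) against 82.5 ± 60.1 in ICM (SD, n = 2), a log2 change of -1.28 ± 1.29 (SE, limma adjusted p = 0.413). In outgrowths it averaged 22.9 ± 30.9 (SD, n = 10), a log2 change from ICM of -3.15 ± 1.22 (SE, limma adjusted p = 0.0678). It was called without day 1 or day 2 replicate 1 (-3.60 in both, limma adjusted p = 0.0189 and 0.019). The floor turned this into a call at -1.17 (limma adjusted p = 0.0435), so that 2 of 3 members were called there, with 45.8% of all miRNAs. miR-221-3p was called in that comparison under 6 of 30 alternatives. ESC against outgrowths gave miR-221-3p 1.86 (limma adjusted p = 0.0768), called without either of the same libraries (2.32), and 0.19 at the floor (limma adjusted p = 0.575). For miR-222-3p, ESC against outgrowths gave 0.34 ± 0.51 (SE, limma adjusted p = 0.621), with -0.19 once values were raised to the floor (0.243). Without day 0.5 replicate 1 that change was 0.77 and was called (limma adjusted p = 0.00611), and without day 0.5 replicate 2 it was -0.097 (0.663). In that comparison 0 of 4 members were called, 1 of them at an unadjusted limma p below 0.05, while 51.8% of all miRNAs were called. At days 2 and 3 against days 0.5 and 1 the log2 change of miR-221-3p was -2.82 (limma adjusted p = 0.0769). It was -3.97 and called without day 1 replicate 2 or without day 2 replicate 1 (limma adjusted p = 0.014 and 0.0146), and it was -0.48 at the floor (limma adjusted p = 0.375). Over all 9 groups miR-221-3p passed the threshold narrowly (limma F test, adjusted p = 0.0476) and missed it at the floor (0.115) and in 14 of 18 fits that left out a library, while miR-222-3p passed it on both scales (2.34e-04 and 2.31e-06). With values as deposited these were 2 of 4 members called, against 66.5% of all miRNAs. At the floor 2 of 3 members were called, miR-222-3p and miR-221-5p, against 81.1% of all miRNAs.

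miR-221-5p was highest at day 0.5. It had 87 and 202 normalized counts at day 0.5, which are 50 and 57 reads, against 0 and 47 in ICM. At day 1 it had 0 and 22, at days 2 and 3 it was listed at 0 in 4 of 4 libraries, and at day 5 it had 7 and 14. In ESC it had 3 and 4 in P2, 7 and 2 in P4, and 3 and 0 in P15. Both day 0.5 libraries therefore lay above each of the other 16 libraries, and how many of all miRNAs do so was not counted. The exact 95% Poisson intervals at day 0.5 were 64.3 to 114 and 153 to 261 normalized counts, and that of the ICM library above 0 was 26 to 76.7.

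Day 0.5 against ICM gave miR-221-5p a log2 change of 4.27 ± 1.72 with values as deposited, not called (SE, limma adjusted p = 0.156), though it was without ICM replicate 2 (7.06, limma adjusted p = 0.00746). At the floor the change was 1.89 and was called (limma adjusted p = 0.00174), the 1 of 3 members called there, against 18.3% of all miRNAs. At the floor miR-221-5p passed the filter through 3 libraries, 2 of them of day 0.5, so its floor calls in comparisons that involve day 0.5 rest on the libraries that let it in and are given as a description. With values as deposited 5 libraries reached the filter's 10, 3 of them outside day 0.5. Day 1 against day 0.5 gave -4.80, not called (limma adjusted p = 0.089), and -2.29 at the floor, called (limma adjusted p = 3.97e-04). With values as deposited it was called without ICM replicate 1 (limma adjusted p = 0.0243), ICM replicate 2 (0.0214) or day 1 replicate 2 (0.0288). At the floor 2 of 3 members were called in that step, against 19.1% of all miRNAs. At days 2 and 3 against days 0.5 and 1 miR-221-5p fell by 4.66 ± 1.21 on the log2 scale (SE, limma adjusted p = 0.0115), with 0 in 4 of 4 libraries at days 2 and 3 against 0 to 202 at days 0.5 and 1. The fall was 1.14 at the floor (limma adjusted p = 0.00176), while the call was missed in the fit on shallow libraries alone (limma adjusted p = 0.0547). Without ICM replicate 2, its change against ICM turned positive, 1.82 in ESC and 2.56 in outgrowths, neither of them called. Without ICM replicate 1 the change in ESC was -3.77 and was called (limma adjusted p = 0.0358), so no direction against ICM is read from it. ESC against ICM was -0.97 (limma adjusted p = 0.573) and outgrowths against ICM -0.24 (0.891). ESC against outgrowths was -0.74 (limma adjusted p = 0.522), and -0.46 at the floor, where it was called (limma adjusted p = 0.0313) with 62.8% of all miRNAs.

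miR-222-5p was near the limit throughout. It had 34 normalized counts in ICM replicate 2, 18 in day 0.5 replicate 2 and 0 in the other 8 libraries up to day 3. From day 5 on it had between 0 and 5. It passed the filter on low values through these ICM and day 0.5 libraries. It was called in none of the 15 comparisons with values as deposited, and was not tested at the floor. Its lowest unadjusted limma p was 0.19, in outgrowths against ICM.

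Which 3p arm led changed over time. In ICM and at day 0.5, 3 of 4 libraries resolved at least 1 of the 3p arms, and miR-221-3p exceeded miR-222-3p in these 3. In day 0.5 replicate 1 the arms had 23 and 19 normalized counts, neither of them resolved and with Poisson intervals that overlapped. In the other direction, miR-222-3p exceeded miR-221-3p in 14 of 14 libraries from day 1 on. This split was seen in the values and was not set by the labels, so it carries no test. Because the arms share a library, their ratio depends on the scaling of libraries only through the 1 added to each value. The mean log2 ratio of miR-221-3p to miR-222-3p, with 1 added, was 6.17 ± 1.15 in ICM, 3.48 ± 4.55 at day 0.5, -4.07 ± 3.55 at day 1, -5.57 ± 3.19 at day 2, -7.04 ± 0.63 at day 3 and -2.88 ± 0.20 at day 5 (SD, n = 2 each). Up to day 3 many of these ratios rest on an arm listed at 0. At the floor they ran 1.38, 0.96, -1.58, -3.10, -2.27 and -2.92, with the change of sign between day 0.5 and day 1.

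The ratio was tested at like depth for days 2 and 3 against days 0.5 and 1. It averaged -6.31 against -0.30 (n = 4 each), with an exact two-sided permutation p of 0.0571, and at the floor the exact p was 0.0286, the smallest that the 70 splits allow. That test was chosen after the values were seen, with a Benjamini-Hochberg value of 0.0857 over 3 such tests. It took the replicates of a time as separate libraries. Between ESC (-1.69 ± 1.13, SD, n = 6) and outgrowths (-3.22 ± 4.42, SD, n = 10) the difference was 1.53, with an exact two-sided permutation p of 0.446 (Benjamini-Hochberg 0.446 over 4 ratio and share tests).

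The sum of the seed-sharing 3p arms had group means of 82.5 in ICM, 72.5 at day 0.5, 94 at day 1, 244 at day 2, 137 at day 3 and 245 at day 5, and of 148 in P2, 204.5 in P4 and 70.5 in P15. The sum was between 40 and 262 in each of the 18 libraries, so none of them lacked both arms. At days 2 and 3 it averaged 190.5 ± 71.6, against 83.2 ± 27.8 at days 0.5 and 1 (SD, n = 4 each). The exact two-sided permutation p was 0.0571 (Benjamini-Hochberg 0.0857 over 3 tests added after the values were seen). That test took the 2 replicates of a time as separate libraries. ESC and outgrowth libraries overlapped, with 141 ± 61.3 in ESC (SD, n = 6) and 158.5 ± 81.7 in outgrowths (SD, n = 10).

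**Figure D3:**
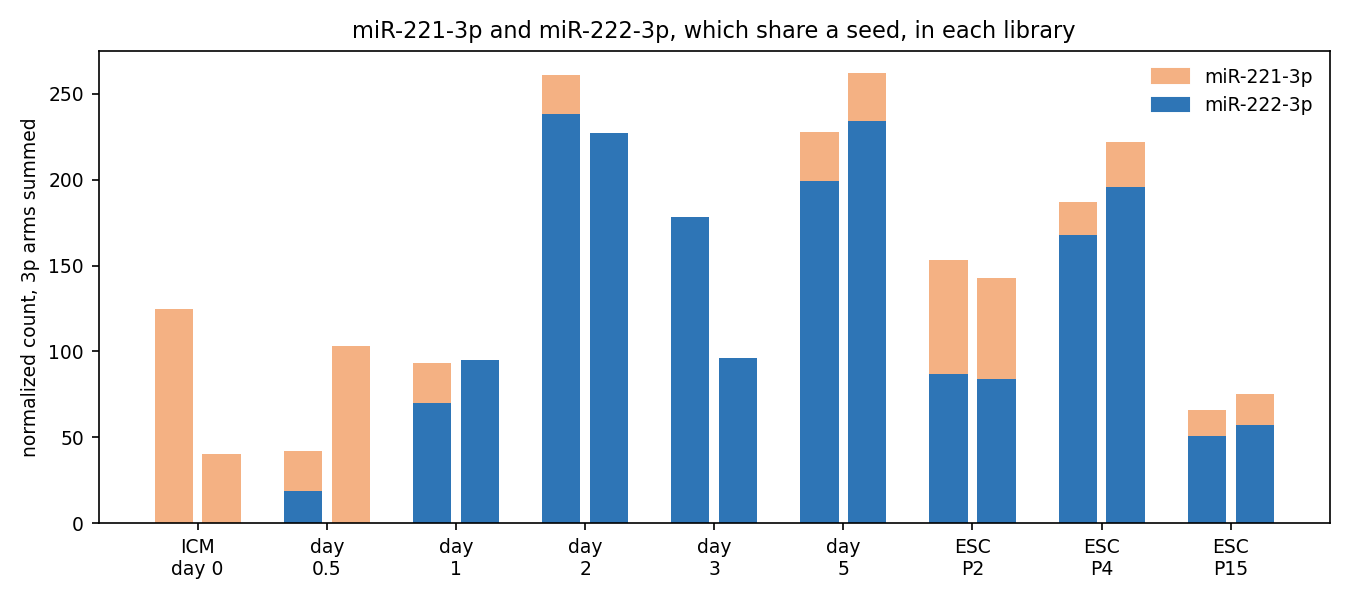
Stacked normalized counts of miR-222-3p (blue) and miR-221-3p (orange) in each of the 18 libraries, replicate 1 left of replicate 2 in each group. The ICM bars are miR-221-3p alone (125 and 40), and from day 1 on miR-222-3p is the larger part of each bar.

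As a share of all normalized counts, the 4 members held 0.0153 ± 0.00785% in ESC (SD, n = 6) and 0.0258 ± 0.0104% in outgrowths (SD, n = 10). The exact two-sided permutation p was 0.0534 (Benjamini-Hochberg 0.107 over the 4 tests), and 0.179 when replicates of a group were kept together. The highest outgrowth share was 0.0429%, in a day 0.5 library, where miR-221-5p had 202 of 323 normalized counts of the members.

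The arm balance of miR-221 was examined in libraries with both arms above 0. Of the 6 libraries of ICM, day 0.5 and day 1, 3 qualified, and miR-221-5p exceeded miR-221-3p in 3 of 3. In 1 of these, ICM replicate 2 (47 against 40), the Poisson intervals of the arms overlapped. ICM replicate 1 did not qualify, with 125 normalized counts of miR-221-3p and miR-221-5p listed at 0. Over all 6 libraries miR-221-5p was the higher in 4 and miR-221-3p in 2, with no resolved arm at day 1. Of the 8 libraries of day 5 and ESC, 7 qualified, and miR-221-3p exceeded miR-221-5p in 7 of 7. Its mean log2 ratio, 5p over 3p, was -3.16 ± 1.24 in ESC (SD, n = 5) and -0.04 ± 1.81 in outgrowths (SD, n = 4), with an exact two-sided permutation p of 0.0317 (Benjamini-Hochberg 0.107). At the floor the exact p was 0.124, and leaving out single libraries gave differences of -3.79 to -2.47 with 6 of 9 losing an unadjusted p below 0.05. miR-222-3p was above miR-222-5p in each library from day 1 on. Before that, miR-222-5p had 34 normalized counts in ICM replicate 2 and 18, not resolved, in day 0.5 replicate 2, with miR-222-3p listed at 0 in both. Day 0.5 replicate 1 had the other order, with miR-222-3p at 19, not resolved, and miR-222-5p at 0. The log2 5p to 3p ratio of miR-222 averaged -4.88 ± 0.77 in ESC (SD, n = 4) and -6.09 ± 0.77 in outgrowths (SD, n = 2). With these numbers no exact permutation p can be below 0.0667, so the difference of 1.21 could not be tested at the threshold.

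The ESC and day 5 libraries, all deep, resolve both 3p arms. ESC against day 5 gave miR-222-3p 51 to 196 normalized counts in ESC and 199 and 234 at day 5. They did not overlap, though the share of all miRNAs without overlap was not counted, and the log2 change was -1.19. In the fit on all groups, which share 1 estimate of the spread with the shallow libraries, this was not called (SE 0.81, limma adjusted p = 0.524). There 0 of 4 members were called, none at an unadjusted limma p below 0.05, against 14.9% of all miRNAs. Without the first or the second day 0.5 library it was called at the same change (limma adjusted p = 0.017 and 0.0134). At the floor it was called (-1.20, limma adjusted p = 0.00152), with 31.6% of all miRNAs called. In a fit on the 8 deep libraries alone, added after the values were seen, it was called as well (-1.19 ± 0.13, SE, limma adjusted p = 8.96e-04), 1 of 2 members tested, against 45.9% of 556 miRNAs. The floor and the deep fit thus call a fall that the fit as planned does not. miR-221-3p was not called in that comparison, with a mean of 33.8 normalized counts in ESC against 28.5 at day 5, a log2 change of 5.18e-04 and a limma SE of 1.29.

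Among the ESC codes no member was called in the planned fit, while the values of both 3p arms stood apart by code. miR-222-3p was highest in P4 (168 and 196), next in P2 (87 and 84) and lowest in P15 (51 and 57). miR-221-3p was highest in P2 (66 and 59), while P4 (19 and 26) and P15 (15 and 18) were close. No pair of codes overlapped for miR-222-3p, and for miR-221-3p P2 overlapped neither of the others. With 2 libraries a code this is a description only, and the share of all miRNAs without overlap between codes was not counted. The fit on all groups called no member among ESC groups (limma F test, adjusted p = 0.496 for miR-222-3p and 0.772 for miR-221-3p, none at an unadjusted p below 0.05), against 27.4% of all miRNAs. The fit on deep libraries, added after the values were seen, called both (limma F test, adjusted p = 3.56e-04 and 9.08e-04), 2 of 2 tested, where 80.4% of all miRNAs were called.

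By pair in that deep fit, P4 against P2 gave 1.08 ± 0.16 for miR-222-3p (SE, limma adjusted p = 0.00203) and -1.45 ± 0.23 for miR-221-3p (0.0022). In that fit the arms differed between these codes in opposite directions, in a comparison where 56.8% of all miRNAs were called. P15 against P2 gave -0.66 for miR-222-3p (limma adjusted p = 0.0121) and -1.86 for miR-221-3p (5.18e-04), with 65.8% of all miRNAs called. P15 against P4 gave -1.73 for miR-222-3p (limma adjusted p = 1.85e-04) and -0.41 for miR-221-3p, not called (0.164), with 56.1% called. At the floor, which keeps all groups, miR-222-3p was called in P4 against P2 and in P15 against P4, with 34.4% and 31.1% of all miRNAs, and among ESC groups with 50.5%. In the fit on all groups as deposited none of these was called, against 17.8%, 21.3% and 16.5% of all miRNAs, and no member had an unadjusted limma p below 0.05 there. The mean log2 ratio of miR-221-3p to miR-222-3p was -0.45 ± 0.08 in P2, -2.97 ± 0.15 in P4 and -1.66 ± 0.06 in P15 (SD, n = 2 each), so P4 was the code closest to day 5 (-2.88 ± 0.20).

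Markers of other cells that a culture could hold were read beside these values, and their part in the results was not tested. The fibroblast and smooth muscle list (6 miRNAs) summed to 2098 to 4809 normalized counts in ESC, 2255 to 2914 at day 5, 7871 to 21566 at days 0.5 to 3 and 7130 to 8438 in ICM. Most of the early sum was miR-10b-5p. miR-143-3p, a smooth muscle and fibroblast miRNA, was resolved in each library, with 143 to 2375 normalized counts, and it was higher in ESC than in ICM (2.21, limma adjusted p = 2.44e-06) and lower at days 2 and 3 than at days 0.5 and 1 (-1.38, limma adjusted p = 1.15e-04). miR-199a-3p averaged 69 to 146.5 by ESC code, 440 at day 0.5 and 538.5 in ICM. miR-145a-5p was listed at 0 in each library up to day 3, and miR-214-3p and miR-199a-5p were at 0 or not resolved there. From day 5 on miR-145a-5p averaged 51 at day 5, 41 in P2, 56 in P4 and 49 in P15. Like miR-143-3p it was called higher in ESC against ICM (5.62, limma adjusted p = 3.66e-07). At the floor this was 0.83 (limma adjusted p = 9.45e-04). It passed the filter only through libraries of day 5 and ESC, so this call rests on libraries that let it in and is a description. In ESC against ICM miR-10b-5p was called lower (-2.97, limma adjusted p = 4.54e-05) and miR-199a-3p was not called (-2.36, 0.0516). Of the 4 members of this list that were tested, 2 were called higher and 1 lower, against 31.6% and 23.7% of all miRNAs. At the floor 2 were called each way, where 68.1% of all miRNAs were called. The endothelial pair miR-126a-3p and miR-126a-5p summed to 366 to 1132 in ESC, 38 to 269 in outgrowths and 131 to 143 in ICM. The pair was lowest at day 2, at 38 and 63, with miR-126a-3p listed at 0 in both libraries. Both arms were called higher in ESC against ICM, miR-126a-5p by 2.19 and miR-126a-3p by 4.35 (limma adjusted p = 1.75e-04 and 0.0295). Neither was called in outgrowths against ICM (-0.22 and 0.73) or at days 2 and 3 against days 0.5 and 1 (-0.41 and 0.11). The blood list (6 of 7 names in the table) summed to 1061 to 2209 in ESC, 528 to 2952 in outgrowths and 2252 to 2918 in ICM, with the erythroid miR-451a and the myeloid miR-223-3p listed at 0 in each library of days 2, 3 and 5. Of the 5 members of that list that were tested, 3 were called higher and 1 lower in ESC against ICM. The counts were 2 and 1 in outgrowths against ICM, and 3 and 1 at days 2 and 3 against days 0.5 and 1. Over all miRNAs the shares were 31.6% and 23.7%, 16.3% and 18.6%, and 11.2% and 21.9%. miR-142-5p was higher in ESC against ICM (2.32, limma adjusted p = 3.38e-05), in outgrowths against ICM (1.13, 0.00745) and at days 2 and 3 against days 0.5 and 1 (0.73, 0.0433). miR-150-5p was higher in these 3 too, by 2.28, 2.00 and 3.17 (limma adjusted p = 4.93e-05, 2.19e-04 and 5.24e-06). miR-486-5p was higher at days 2 and 3 (1.26, limma adjusted p = 0.0102) and lower in ESC and in outgrowths against ICM (-3.67 and -2.72). miR-142-3p was called higher in ESC against ICM (5.58, limma adjusted p = 7.66e-04) but not in outgrowths against ICM (2.75, 0.0515). miR-223-3p was called lower at days 2 and 3 (-3.44, limma adjusted p = 0.0121), with -0.11 at the floor, not called (0.0757). It passed the filter only through libraries of day 1 or earlier, so this call too is a description. The liver and endoderm list (3 miRNAs) summed to 933 to 3473 in ESC, 547 to 1931 in outgrowths and 1805 to 1941 in ICM, with the hepatocyte marker miR-122-5p listed at 0 outside day 0.5. In outgrowths against ICM 2 of its 2 tested members were called lower, miR-192-5p (-0.92, limma adjusted p = 0.0192) and miR-194-5p (-1.23, 0.0226). At days 2 and 3 against days 0.5 and 1 miR-192-5p was called lower (-1.06, limma adjusted p = 0.00548). Neither was called in ESC against ICM. In bulk libraries, fewer cells of a type and less RNA per cell cannot be told apart.

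Profiles like those of the 3p arms were sought over the 9 group means at the floor, among 280 other miRNAs with a mean of at least 100 normalized counts. For miR-222-3p the highest Pearson correlations were with miR-150-5p (r = 0.91), miR-673-3p (0.89), miR-666-5p (0.88), miR-758-3p (0.86) and miR-679-5p (0.86). miR-150-5p is known from lymphocytes and is on the blood list above. The other 4 are encoded on chromosome 12. miR-150-5p had means of 73 in ICM, 27 at day 0.5, 167 at day 1, 610.5 at day 2 and 1475.5 at day 5, and of 359.5 in P2, 462 in P4 and 277 in P15. So it shared with miR-222-3p the low start, the P15 value below P2 and the P4 value above both. For miR-221-3p the nearest were miR-30a-5p (r = 0.79), miR-7025-3p (0.76), miR-3473e (0.76), miR-7211-5p (0.72) and miR-291b-3p (0.71), on chromosomes 1, 5, 5, 10 and 7. The 3p arms themselves correlated at r = -0.70 over the 9 groups. miR-221-3p stood at the floor at days 1 to 3, in P4 and in P15, and close to it at day 5. Its correlations therefore rest on ICM, day 0.5 and P2, and the resolved values of P4 and P15 were raised to the floor. miR-222-3p stood at the floor in ICM and at day 0.5. All these correlations are descriptions over 9 points that share libraries and the gap in depth, with no test.

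**Figure D4:**
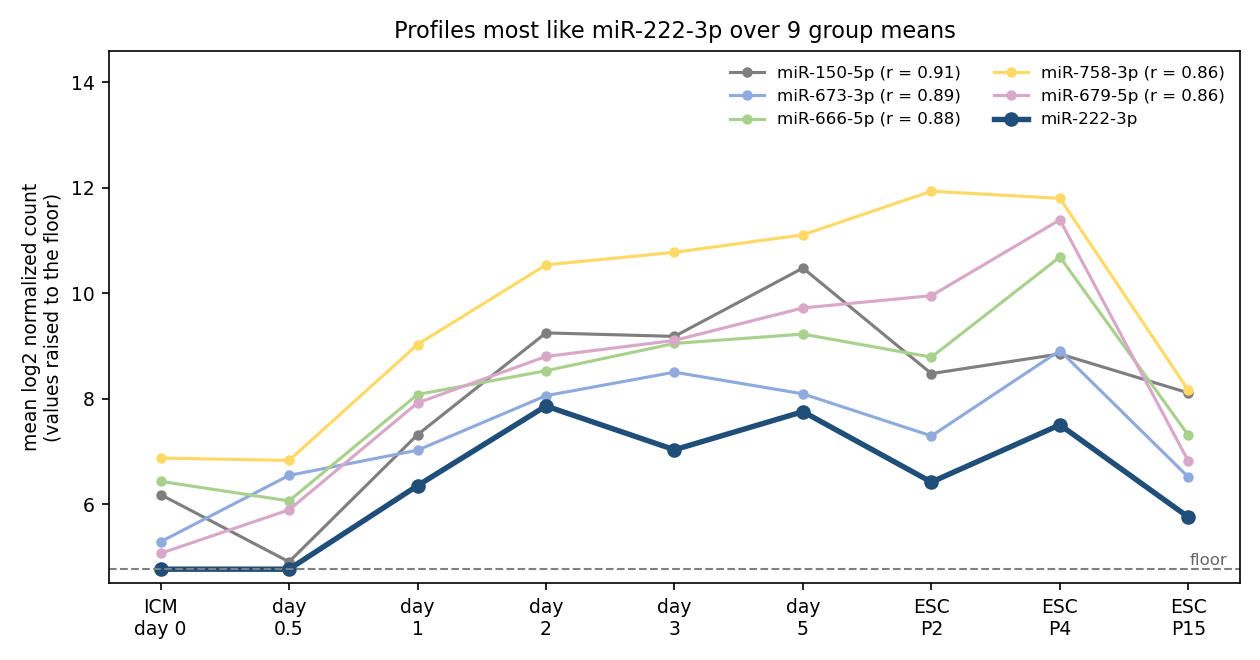
Mean log2 normalized counts, with values raised to the floor (dashed line), of miR-222-3p (dark blue) and the 5 miRNAs most like it, over the 9 groups (n = 2 libraries each). The legend gives Pearson's r with miR-222-3p. Each line is higher at day 2 than at day 0.5 and lower in P15 than in P4.

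Other miRNAs known to repress inhibitors of the Cip/Kip class in mouse or human cells were read from a list of 17, all of them tested. In ESC against ICM 14 of 17 were called higher and 0 lower, with a median log2 change of 3.07 against 0.01 over all tested miRNAs, of which 31.6% were called higher. In outgrowths against ICM 9 were higher and 2 lower (median 1.13 against -0.31), and 16.3% of all miRNAs were called higher and 18.6% lower. At days 2 and 3 against days 0.5 and 1 there were 6 higher and 2 lower (median 0.10 against -0.71), where 11.2% of all miRNAs were called higher and 21.9% lower. In ESC against day 5 there were 4 higher and 1 lower (median 0.54 against -0.05), where 5.92% of all miRNAs were called higher and 9% lower. At the floor there were 4 each way, against 17.1% and 14.5% of all miRNAs. The most abundant of the list was miR-295-3p of the ESC-enriched miR-290 cluster, with 15645 to 35731 normalized counts and a log2 change of 0.17 in ESC against ICM (limma adjusted p = 0.292). Next was miR-92b-3p, which ranged from 0 to 36603 and was listed at 0 in both P2 libraries, with a change of 3.07 (limma adjusted p = 0.24). miR-25-3p ranged from 0 to 14185, listed at 0 in both day 5 libraries. Its group means were 2104 in ICM and between 1806 and 2412 at days 0.5 to 3. Its calls as lower in outgrowths against ICM (-2.26) and as higher in ESC against day 5 (13.2) therefore rest on the day 5 listings at 0. Both calls are part of the counts above. Its change in ESC against ICM was 2.16 and was called (limma adjusted p = 1.52e-06). Next to these the 3p arms of miR-221 and miR-222 were minor, at most 125 and 238 normalized counts in any library.

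Other miRNAs of chromosome X were called in both directions. Of 115 other X-linked miRNAs listed, 74 were tested. In ESC against ICM 19 were called higher and 21 lower, which is 25.7% and 28.4% of the list against 31.6% and 23.7% of all miRNAs (median -0.06 against 0.01). In outgrowths against ICM it was 15 and 9, 20.3% and 12.2% against 16.3% and 18.6% (median -0.0056 against -0.31). At days 2 and 3 against days 0.5 and 1 it was 10 and 17, 13.5% and 23% against 11.2% and 21.9% (median -0.41 against -0.71). In ESC against day 5 it was 2 and 9, 2.7% and 12.2% against 5.92% and 9% (median -0.41 against -0.05). These shares lie near those of all miRNAs and say little about the X-linked list. The most abundant were miR-351-5p, miR-470-5p and miR-2137, with means of 13252, 9225 and 5027 normalized counts.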

How the data were processed

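Small-RNA libraries were made from 3 to 10 ng of small RNA with a TruSeq Small RNA kit and sequenced on an Illumina GAIIx, per the labels' protocols and design text. The deposited table holds 1 score per mature miRNA and library, a normalized count that the authors rounded to a whole number. The submitters' processing notes list the mm10 genome, DESeq2 1.30.0 and cutadapt. How reads were aligned and counted, and against which miRNA set, is not given in the sources used here. Libraries were grouped by their descriptions, which match the column names, and by title for the day 0 columns. All 18 columns were used.

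The members and lists were chosen with earlier results of these data known. The spacing of values below 1000 gave the worth of 1 read in 10 libraries, 1.73 to 5.44 normalized counts, with at least 98.7% of the distinct values of a library within 0.5 of a multiple. Reads and Poisson intervals follow from it.

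Group means of log2(normalized count + 1) were fitted over all 9 groups with limma (version 3.58.1, R 4.3.3), using its trend and robust options and leaving 9 residual degrees of freedom. Tests covered the 811 miRNAs that reached 10 in 2 or more libraries (all 4 members), or at the common floor by the same filter above 27.2 (602 miRNAs, 3 members). p-values were adjusted by Benjamini-Hochberg within each comparison, over each miRNA tested, with a threshold of 0.05. The floor fit and the fits on deep or shallow libraries alone bear on values near the limit, and those on part of the libraries were added after the values were seen. Ratios and shares were compared by exact two-sided permutation tests. Whether libraries of different groups overlap is given as a description, and the share of all miRNAs without overlap was not counted. The fits were tested on simulated data. Calculations used Python 3.11.15, NumPy 2.4.6, pandas 2.3.3, SciPy 1.17.1 and matplotlib 3.10.9.

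Named miRNAs were the 4 members, those sharing a seed, the 5 most correlated with each 3p arm, and the 3 most abundant of the Cip/Kip and chromosome X lists. Marker lists covered pluripotent cells, fibroblasts and smooth muscle, endothelium, blood, and liver and endoderm. Sequences are from RefSeq on GRCm38.p6, the assembly that mm10 is the name of at UCSC, and matched 1166 rows of the table.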

Additional observations from a re-analysis of the deposited data

How the results depend on the processing

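The calls of miR-222-3p in ESC and in outgrowths against ICM held under 28 of 28 and 30 of 30 alternatives, with log2 changes of 1.79 to 7.57 and 1.99 to 7.13. Below, values are log2 changes in the order of the names, F tests give adjusted p, all tests are limma unless named as exact, and the cause of a changed call was not tested. At the common floor calls appeared for miR-222-3p in P15 against P4 (-1.75), P4 against P2 (1.09), ESC against day 5 (-1.20), day 2 against day 1 (1.51) and among ESC groups (5.27e-04), for miR-221-3p in outgrowths against ICM (-1.17), and for miR-221-5p in ESC against outgrowths (-0.46), day 0.5 against ICM (1.89), day 1 against day 0.5 (-2.29) and among all groups (5.47e-04). There miR-221-3p lost its call among all groups (0.115), the exact p of the miR-221 arm ratio passed 0.05 (difference -0.65), that of the share fell below it (-0.0123 percentage points), and the uncalled changes of miR-222-3p in ESC against outgrowths (-0.19) and miR-221-5p in outgrowths against ICM (0.062) turned. The same change was called for miR-222-3p in ESC against day 5 (-1.19), P4 against P2 (1.08) and P15 against P4 (-1.73) with array weights, in deep libraries only and in fits on the groups compared, and the deep and groups-compared fits also called P15 against P2 (-0.66) and, for miR-221-3p, P4 against P2 (-1.45). P15 against P2 for miR-221-3p (-1.86) was called in all 3. The F tests among ESC groups gave 0.0033, 3.56e-04 and 0.00396 for miR-222-3p and 0.0328, 9.08e-04 and 0.0123 for miR-221-3p. Array weights also called miR-221-3p in ESC against outgrowths (1.86) and in day 5 against day 3 (4.88). Fits on the groups compared called day 2 against day 1 for miR-222-3p (1.50) and day 5 against day 3 for miR-221-3p (4.88) and miR-221-5p (3.45), which are 0.068 and 0 at the floor, and lost day 1 against day 0.5 (4.21) and days 2 and 3 against days 0.5 and 1 (3.19) for miR-222-3p. Shallow libraries alone lost day 1 against day 0.5 for miR-222-3p (4.21) and days 2 and 3 against days 0.5 and 1 for miR-221-5p (-4.66). A filter of 100 called miR-221-3p in outgrowths against ICM (-3.15) and day 5 against day 3 (4.88), and leaving out day 5 called it in ESC (2.33) and ICM (-3.61) comparisons of outgrowths. With 10 added, calls appeared for miR-222-3p in P15 against P4 (-1.58) and among ESC groups (0.0322), for miR-221-5p among all groups (0.0106), in day 0.5 against ICM (2.59) and in day 1 against day 0.5 (-3.00), and for miR-221-3p in outgrowths against ICM (-1.78). Quantile normalization called miR-221-5p among all groups (0.0168), in day 0.5 against ICM (4.28) and in day 1 against day 0.5 (-4.28), and turned its change in outgrowths against ICM (0.043) and that of miR-222-5p in ESC against day 5 (0.11). The F test of miR-221-3p over all groups missed the threshold with no filter (0.0671), 0.5 added (0.0538) or quantile normalization (0.167). Uncalled changes turned after rescaling to the same total for miR-221-5p in P4 against P2 (-0.19), miR-221-3p in ESC against day 5 (-0.42) and miR-222-3p in ESC against outgrowths (-0.088), and with 0.5 added for miR-221-3p in ESC against day 5 (-0.0033). With replicates kept together the miR-221 arm ratio differed by -2.60 (exact p = 0.0536).

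The replicate numbers do not pair libraries: same-numbered libraries of 36 group pairs deviated together at r of -0.36 to 0.24, above 0.1 in 3. A fit with the replicate number as a block changed no call of a member, with miR-222-3p in ESC against ICM at 6.58 (limma adjusted p = 6.06e-05).

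Leaving out each library in turn changed a call or a direction for these results, given as the lowest and highest value. For miR-222-3p these were ESC against outgrowths (-0.097 to 0.77), ESC against day 5 (-1.30 to -1.07), day 0.5 against ICM (0 to 4.32), day 1 against day 0.5 (2.05 to 6.37), day 2 against day 1 (1.28 to 1.72), P4 against P2 (0.97 to 1.19), P15 against P4 (-1.84 to -1.62) and the F test among ESC groups (0.00721 to 0.809). For miR-221-3p they were outgrowths against ICM (-3.96 to -2.34), ESC against outgrowths (1.40 to 2.32), ESC against day 5 (-0.072 to 0.073), days 2 and 3 against days 0.5 and 1 (-3.97 to -1.68), day 0.5 against ICM (-1.58 to 0.53), day 5 against day 3 (4.86 to 4.91) and the F test over all groups (0.0116 to 0.138). For miR-221-5p they were ESC against ICM (-3.77 to 1.82), outgrowths against ICM (-3.03 to 2.56), day 0.5 against ICM (1.48 to 7.06), day 1 against day 0.5 (-7.06 to -2.54), P4 against P2 (-0.58 to 0.84) and the F test over all groups (0.00847 to 0.243). For miR-222-5p they were ESC against ICM (-3.76 to -0.86) and outgrowths against ICM (-4.29 to -1.30), whose lowest values rest on the 1 ICM library that let it pass the filter, day 0.5 against ICM (-3.01 to 1.68) and P15 against P4 (-1.21 to 0.79). The miR-221 arm ratio ran from -3.79 to -2.47 and the share from -0.0124 to -0.00857 percentage points.

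Counts over all miRNAs that moved by over 1.5 times came mainly from array weights, with 144 higher and 106 lower in ESC against ICM (256 and 192 in the fit on values as deposited) and 39 and 22 in outgrowths against ICM (132 and 151). ESC against day 5 had 48 higher and 73 lower, and 107 and 148 in deep libraries alone, 83 and 125 with array weights, 98 and 147 in its own groups, 103 and 87 at the floor and 22 and 97 after rescaling. Shallow libraries alone gave 74 and 86 in outgrowths against ICM. A filter of 100 gave 163 higher in ESC against ICM and 110 lower (178 without it) at days 2 and 3 against days 0.5 and 1, where quantile normalization gave 107 higher and 136 lower against 91 and 178. Without ICM replicate 1, 280 were lower in ESC against ICM, and 103 were higher and 225 lower in outgrowths against ICM. The Cip/Kip count of 9 higher in outgrowths against ICM was 2 with array weights and 4 in shallow libraries, and the X-linked count of 19 higher and 21 lower in ESC against ICM was 10 and 12 with array weights. In ESC against day 5 the Cip/Kip count of 4 higher was 1 after rescaling and 8 in deep libraries.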
